A study of Elaeis guineensis with 38 samples.

Results

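The lists described here map H3K4me3 in leaf of clonal oil palms, Elaeis guineensis, and set palms with mantled fruit against palms with normal fruit. They were chosen by antibody and by the fruit phenotype label. They comprise 9 of the 38 samples of the series and 9 of its 19 peak lists. The mantled group holds palms 687, 754, 765 and 770, and the normal group holds palms 753, 758, 764, 767 and 768. All 9 are clonal palms of 1 ortet, the mother palm that was cloned, and chromatin came from leaf of frond 0 in both groups. Each palm has its own tree number and gave 1 H3K4me3 library, precipitated with a mouse monoclonal antibody from Abcam and called against that palm's input, so the palm is the replicate. The labels name no treatment that separates the groups. A single ortet stands for 1 genetic background, leaf is not the organ that shows the phenotype, and no H3K4me3 list of the fifth mantled palm was analysed here.

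Mantling is an abnormality that some oil palms raised through tissue culture develop, in which the stamens of the flower turn into carpel-like organs. H3K4me3, the trimethylated lysine on the tail of histone H3, is laid down around the transcription start of active genes by methyltransferases of the Trithorax group. In plants it usually forms a compact peak over the first part of a transcribed gene, and a broader peak goes with stronger transcription in many systems. The peak lists carry positions on numbered scaffold pieces and no gene names, so regions are named here by piece and position, counted from 1.

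The fragments that entered each peak call ranged from 229258 to 3670206 in mantled palms and from 302016 to 7883375 in normal palms. Their geometric mean was 0.428 times as high in the mantled palms (two-sided exact permutation p = 0.302, n = 4 and 5). A check of the mark labels used 245 regions with H3K4me3 peaks in at least 3 normal palms and no H3K27me3 peak in any normal palm. H3K4me3 lists of normal palms 753, 758 and 768 covered 91.4 to 99.6% of them, and mantled palm 765 covered 98.4% (95% Wilson interval 95.9 to 99.4%). The other normal palms, 764 and 767, covered 4.08 and 16.7%. Mantled palms 687, 754 and 770 covered 0.408, 0.408 and 1.22%. These intervals cover counting error only. Normal palms chose these regions, so their own shares are a description. The reverse check took 70 regions with H3K27me3 and no H3K4me3 in normal palms. The library labelled H3K4me3 of palm 754 had a peak at 91.4% of them, that of palm 770 at 31.4%, that of palm 765 at 10.0% and that of palm 687 at 1.43%. The library of palm 754 therefore stood against its mark label, and that of palm 770 also covered more of the H3K27me3 set than of the H3K4me3 set. The list of palm 687 held 1 region of each set, so the check does not settle its mark. Palm 765 was the 1 mantled palm whose list resembled those of normal palms 753, 758 and 768.

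Overlap by 1 bp or more joined the peaks of the 9 lists into 5826 regions. Both phenotypes had a peak at 3016 of these (51.8%), mantled palms alone at 1964 and normal palms alone at 846. Most regions of 1 phenotype came from a single library. Of the 1964 mantled regions 1921 had a peak in 1 library, and of the 846 normal regions 741 did. Palm 765 alone gave 1351 private regions, palm 754 gave 506 and palm 758 gave 586, while the other 6 libraries gave between 12 and 71 each. The shared regions rested on few libraries as well. Palm 765 was the single mantled library at 2137 of the 3016, and without it 879 regions were shared instead of 3016. With the H3K4me3 and H3K27me3 lists of palm 754 exchanged, 2741 were shared.

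**Figure D1:**
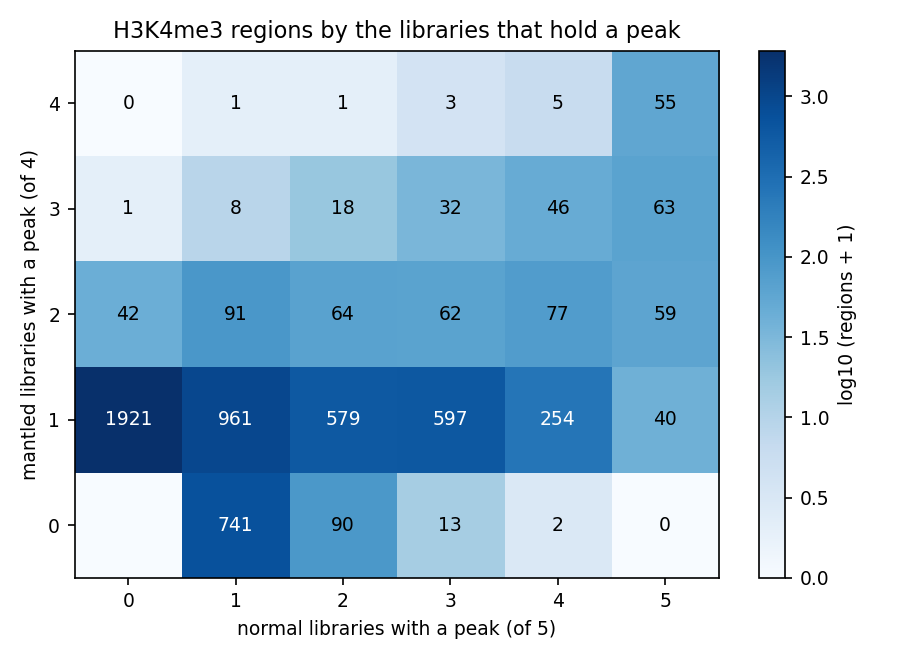
Number of merged H3K4me3 regions by how many of the 5 normal libraries (horizontal axis) and of the 4 mantled libraries (vertical axis) held a peak, with the colour giving log10 of the count plus 1. The fullest cell is 1921 regions in 1 mantled library, 55 regions had a peak in all 9, and the corner cells of complete separation, 4 mantled with 0 normal and 0 mantled with 5 normal, are both 0.

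Every region marked throughout 1 phenotype had a peak in at least 1 palm of the other, though often not in all of them. A peak was present in all 5 normal palms at 217 regions. Palm 765 had a peak at 205 of these, palm 770 at 171, palm 687 at 96 and palm 754 at 95, and 0 of the 217 lacked a peak in every mantled palm. A peak was present in all 4 mantled palms at 65 regions. Normal palms 753, 764 and 768 each had a peak at 64 of them, palm 758 at 58 and palm 767 at 57. By Fisher's exact test with Benjamini-Hochberg adjustment, 0 of the 5826 regions (0%) differed in presence between the phenotypes. This count says little, since the smallest p that 4 against 5 palms allow is 0.00794 and at least 925 fully separated regions would have been needed to pass, where the lists held 0. At an unadjusted p under 0.05 there were 42 regions more often marked in normal palms (0.721%) and 2 more often marked in mantled palms (0.0343%). At 40 of the 42, all 5 normal palms and palm 765 had a peak and palms 687, 754 and 770 had none. The other 2 had a peak in 4 normal palms and in no mantled palm.

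Regions of 1 phenotype in several palms were few. Mantled palms shared 43 regions that no normal palm had, and 28 of these lay in palms 754 and 770 together and 10 in palms 754 and 765. Palm 754, whose list stood against its mark label, was among the libraries at 41 of the 43, and palm 770 at 30. Of the 43 regions, 32 (74.4%) had H3K27me3 peaks in at least 3 H3K27me3 libraries, against 27.3% of all merged regions. Normal palms shared 105 regions that no mantled palm had, of which 18 (17.1%) had H3K27me3 peaks in at least 3 libraries. Only 15 of the 105 had a peak in 3 or more normal palms, and 2 had one in 4.

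The level in each list was then read as the pileup, the number of fragments stacked at the summit of a library's strongest peak in a region. It was divided by the average coverage of that library, which is the fragments times their length d, over the genome size given to the caller. A scaled pileup of 10 is thus 10 times the average, on a scale that compares libraries and is no copy number. Local background from the input, scaled in the same way, is given beside it.

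The regions that lean furthest between the phenotypes in presence show how the levels lay, and are described without a test because presence chose them. Towards mantled palms, the region on p5.00_sc01104_p0001 from 300 to 585 had scaled pileups of 119, 112, 60.7 and 64.9 in palms 687, 754, 765 and 770, and 76.8 in normal palm 768. The level of the 1 normal palm with a peak lay among those of the mantled palms, so the phenotypes overlapped. On p5.00_sc02691_p0001 from 7706 to 8072 the values were 144, 124 and 68.6 in palms 687, 754 and 770, with no peak in palm 765 or in any normal palm. The other 3 were on p5.00_sc00061_p0067 from 21679 to 22510, on p5.00_sc00056_p0023 from 1896 to 2219 and on p5.00_sc00774_p0004 from 794 to 1148. At the first of these, 4 mantled palms had 469 to 579 and normal palms 753 and 764 had 502 and 537. At the others normal palm 758 had 90.5 and 77.0, above palm 770 in the former and below it in the latter. H3K27me3 was also called at all 5 of these regions, in 5 to 8 of its 10 libraries.

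Towards normal palms, p5.00_sc02166_p0001 from 3127 to 3611 had scaled pileups of 11.3, 14.6, 17.9 and 7.68 in palms 753, 758, 767 and 768 and no peak in palm 764 or in any mantled palm. On p5.00_sc00022_p0103 from 292 to 905 they were 4.94, 7.58, 21.5 and 6.15 in the same palms. The lowest scaled pileup of any peak was 17.0 in mantled palm 687, where it stands for 4 fragments, 8.72 in palm 754 and 7.49 in palm 770, against 3.01 in mantled palm 765 and 2.41 in normal palm 758. The levels at both regions thus lay partly below what the shallow mantled libraries called at all, and above the lowest peak of palm 765, which had no peak at either. The remaining 3 lay on p5.00_sc00709_p0003 from 19224 to 20225, p5.00_sc00016_p0009 from 31651 to 32226 and p5.00_sc02809_p0001 from 17033 to 17811. All 5 normal palms and palm 765 had peaks there, and palm 765 with 568, 498 and 428 lay within the normal ranges of 502 to 611, 438 to 566 and 381 to 434. The 5 regions towards normal palms had H3K27me3 called as well, in 1 to 7 of its 10 libraries.

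Only regions with a peak in every library give a level for each of the 9 palms, and there were 55 of these on 47 scaffold pieces. They were 268 to 2020 bp wide with a median of 744 bp. All 55 had H3K27me3 peaks in at least 8 of the 10 H3K27me3 libraries. The input stacked to 19.1 to 938 times average coverage there, with a median of 279, against a median of 5.23 over all merged regions. Median fold enrichment, the caller's ratio of pileup to local background, ran from 1.57 in palm 758 to 2.85 in palm 765.

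At these regions the median scaled pileup was 679, 634, 486 and 643 in mantled palms 687, 754, 765 and 770. It was 498, 433, 580, 703 and 594 in normal palms 753, 758, 764, 767 and 768. The highest and the lowest value both belonged to normal palms, so the phenotypes overlapped throughout. The mean of the log2 medians was 9.24 ± 0.22 in mantled palms (SD, n = 4) and 9.11 ± 0.27 in normal palms (SD, n = 5), a ratio of 1.09 (p = 0.444 by two-sided exact permutation, 0.690 adjusted). Without palm 754 the log2 difference was 0.15 and without palm 770 it was 0.10, against 0.13 with all palms. The adjusted p is over 6 library-level tests by the Benjamini-Hochberg method, and the smallest p that the splits of 9 palms allow is 0.00794.

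**Figure D2:**
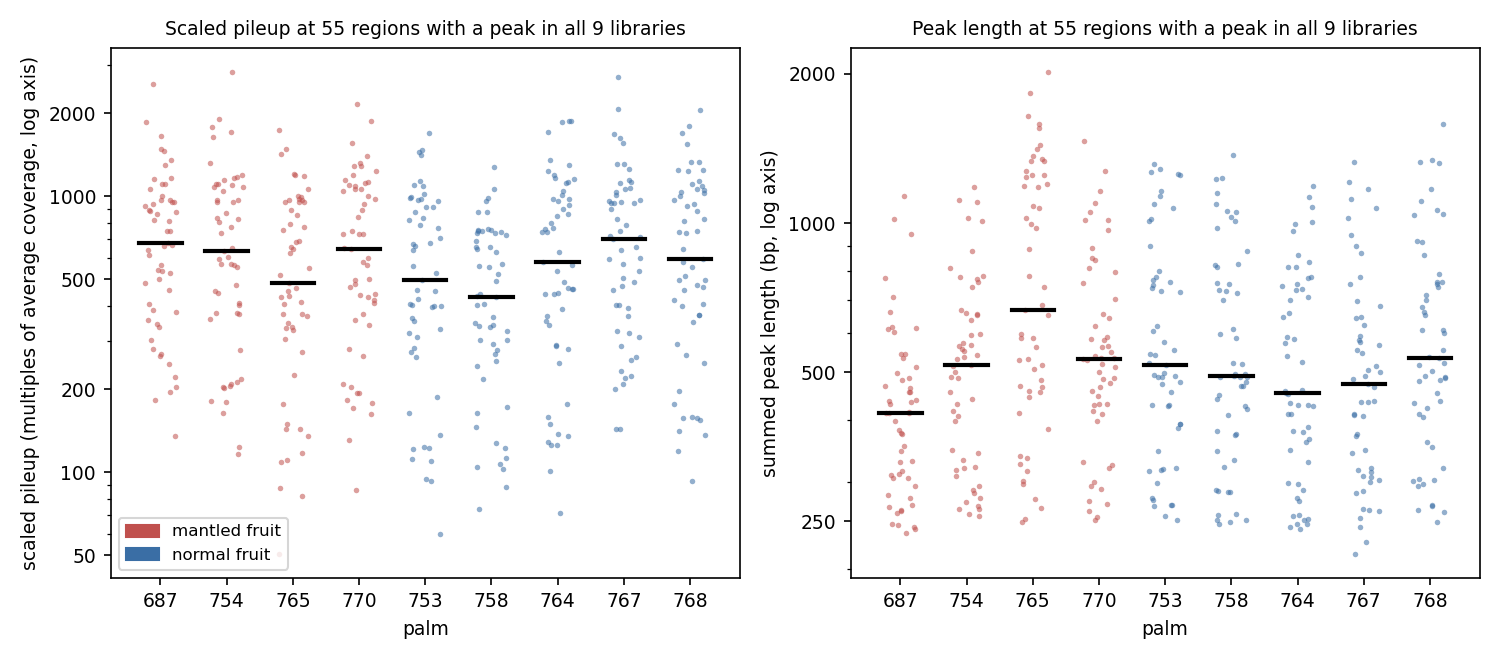
Scaled pileup (left, multiples of average coverage, log axis) and summed peak length (right, bp, log axis) at the 55 regions with a peak in all 9 libraries, with 1 point per region, a black bar at the library's median and colour for the fruit phenotype. Median pileup runs from 433 in palm 758 to 703 in palm 767, both normal, and median length from 414 bp in palm 687 to 668 bp in palm 765, both mantled.

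The level at these regions went with depth. Palm 758, the deepest library, had the lowest median, and palms 767 and 687, the shallowest, had the highest. Across the 9 libraries the log2 median scaled pileup had a Pearson r of -0.972 with log2 fragments (exact permutation p = 3.03e-05, adjusted p = 9.09e-05) and a Spearman rho of -0.967 (p = 0.000165 by exact permutation of the 9 libraries, 0.000496 adjusted). The adjusted values are over 3 relations. Leaving out the 2 libraries most distant in depth from the median gave r = -0.974 (n = 7), and with both measures centred on phenotype it was -0.973. With log2 fragments in the model the mantled minus normal difference was -0.042 on the log2 scale (p = 0.413 by permutation of the labels, not exact given depth). Without the covariate it was 0.13 (exact permutation p = 0.444, n = 4 and 5). The caller kept at most 1 fragment per position, and the part of that limit in the relation was not tested.

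**Figure D3:**
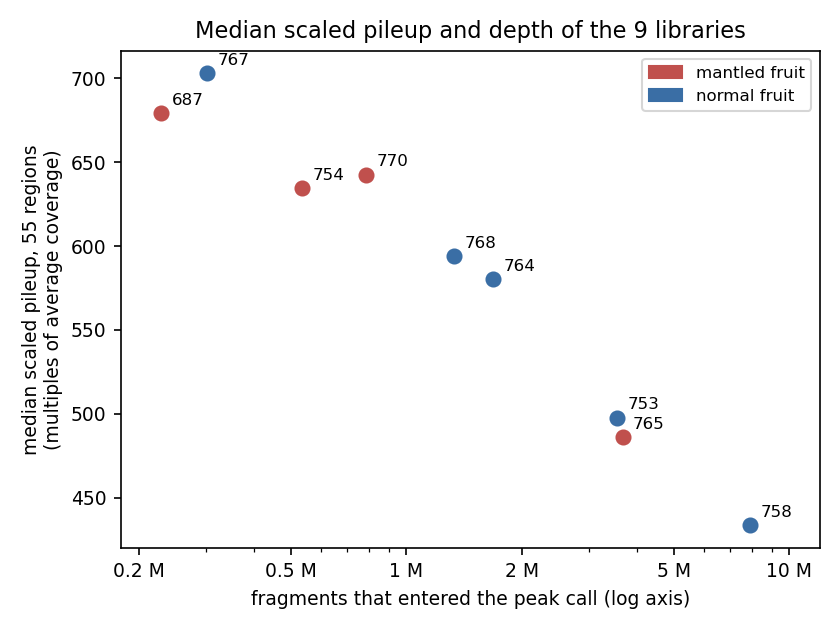
Median scaled pileup over the 55 regions with a peak in all 9 libraries (vertical axis, multiples of average coverage, starting above 0) against the fragments that entered the peak call (horizontal axis, in units of M, log axis), with 1 point per palm. The points fall from 703 and 679 in the shallow libraries of palms 767 and 687 to 433 in the deepest, palm 758, with mantled and normal palms along 1 line.

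The input was read in the same way as the background. Median scaled local background at the 55 regions was 295, 239, 171 and 264 in mantled palms 687, 754, 765 and 770, and 279.9, 259, 275, 283 and 282 in normal palms 753, 758, 764, 767 and 768. Palm 765 was the lowest and palm 687 the highest of the 9, and the normal palms lay close together. The mantled palms stood at 0.861 times the normal ones (p = 0.143 by exact permutation, 0.690 adjusted). With log2 fragments as a covariate the difference was -0.33 on the log2 scale (unadjusted p = 0.0317 by permutation of the labels, not exact given depth). Without palm 765 the difference, with no covariate, turned from -0.22 to 0.023 on the log2 scale. Dividing pileup by this background gives the authors' fold enrichment. With it the mantled minus normal difference was 0.30 on the log2 scale instead of 0.13 (exact permutation p = 0.0952, n = 4 and 5).

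Of the 55 regions, 54 (98.2%) had a higher mean level in mantled palms, by a median of 0.15 on the log2 scale. Among the 485 regions with peaks in at least 2 palms of each phenotype, 394 (81.2%) did. Library medians went with depth and the regions share the libraries, so the 54 are not independent results. The groups did not overlap at 0 of the 55 in either direction (0%). The differences furthest towards mantled palms, which were chosen by their size, were 0.50 on p5.00_sc00436_p0003 from 10842 to 11529, 0.35 on p5.00_sc00087_p0065 from 15890 to 16590, 0.29 on p5.00_sc00527_p0003 from 74 to 619 and on p5.00_sc00092_p0018 from 10981 to 12626, and 0.27 on p5.00_sc01093_p0001 from 60960 to 62323. At the first of them the scaled pileup was 263, 218, 135 and 203 in mantled palms 687, 754, 765 and 770, and 112, 107, 137, 219 and 157 in normal palms 753, 758, 764, 767 and 768. Palm 767 lay among the mantled palms and palm 765 among the normal ones. Towards normal palms, 1 region had a difference below 0, at -0.076, on p5.00_sc02067_p0001 from 16404 to 17755. There the values were 267.5, 204, 274 and 342 in mantled palms 687, 754, 765 and 770, against 268.2 to 293 in normal palms. Only palm 765 lay within the normal range, and palm 687 lay just below it. The difference turned to 0.054 without palm 754. The next 4 differences, on p5.00_sc00847_p0001, p5.00_sc03049_p0001, p5.00_sc01226_p0002 and p5.00_sc02534_p0002, were between 0.00063 and 0.038, and each of the 4 turned negative with log2 fragments as a covariate.

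Region by region, the levels were fitted with limma at the 485 regions that had a peak in at least 2 mantled and 2 normal palms, with libraries lacking a peak left out of that region's fit. After Benjamini-Hochberg adjustment 0 of the 485 (0%) differed in scaled pileup (smallest adjusted p = 0.477). At an unadjusted p under 0.05 there were 12 higher (2.47%) and 1 lower (0.206%) in mantled palms. The median difference was 0.15 on the log2 scale, with 394 regions (81.2%) higher in mantled palms. With log2 fragments as a covariate 46.8% were higher, and with each library centred on its median over the 55 regions 57.3% were. The lean thus moved with the covariate and with the centring. The lean was larger where the input was low. The median difference was 0.35 at the 116 regions with local background under 10 times the average and 0.12 at the 369 with at least 10 times. A shallow library enters a region of low background only when its own peak is high there, and the share of this selection in the difference was not tested.

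**Figure D4:**
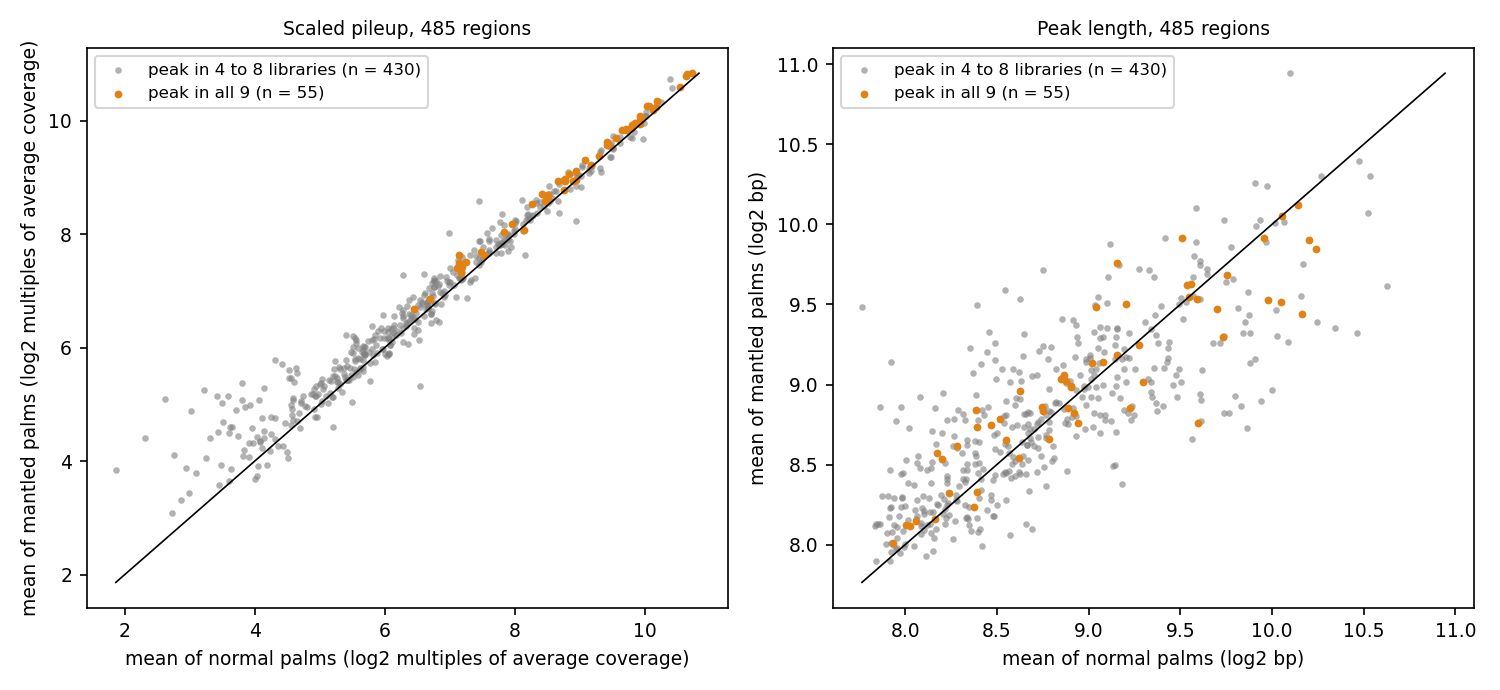
Mean of the mantled palms (vertical axis) against mean of the normal palms (horizontal axis) for scaled pileup (left, log2 multiples of average coverage) and summed peak length (right, log2 bp) at 485 regions with a peak in at least 2 palms of each phenotype, with orange for the 55 present in all 9 libraries and a line of equality. In the left panel 394 of 485 regions lie above the line, with the widest scatter at low levels, and in the right panel 272 do.

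The regions with the smallest p for level, described here because they were chosen by it, had values in few libraries. On p5.00_sc00065_p0017 from 1726 to 2005, the scaled pileup was 17.0, 15.7 and 11.2 in mantled palms 687, 754 and 770, and 4.39 and 3.01 in normal palms 753 and 758. These stand for 4, 9 and 9 stacked fragments against 16 and 25. The groups did not overlap, at a difference of 1.99 ± 0.30 on the log2 scale (SE, limma unadjusted p = 0.000984, adjusted p = 0.477, 3 mantled and 2 normal palms), but the other 4 libraries gave no value. On p5.00_sc00091_p0037 from 5018 to 5461 palms 687 and 754 had 51.0 and 22.7, and normal palms 753 and 758 had 7.97 and 4.69. On p5.00_sc00835_p0001 from 16924 to 17235 the same palms had 59.5, 24.4, 9.06 and 9.50. At both, the mantled libraries with a value were the shallow ones and the normal libraries the deep ones, so depth and phenotype cannot be told apart there.

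Towards normal palms the region with the smallest p was on p5.00_sc00252_p0004 from 904 to 1901. Its scaled pileup was 34.0, 62.0 and 29.9 in mantled palms 687, 765 and 770, and 61.5, 78.3, 154 and 103 in normal palms 753, 758, 767 and 768. Palm 765 lay at the lower end of the normal palms and the other mantled palms below all of them. Palm 687 was shallower than all 4 of these normal libraries. Its value stands for 8 stacked fragments and that of palm 770 for 24. The difference was -1.23 ± 0.38 (SE, limma unadjusted p = 0.0141, adjusted p = 0.964, 3 mantled and 4 normal palms). On p5.00_sc00154_p0014 from 5140 to 6979 mantled palms 765 and 770 had 26.1 and 22.5, below normal palms at 29.7 to 50.2. On p5.00_sc00477_p0001 from 8128 to 8908 palms 754 and 765 had 209 and 187, below normal palms 767 and 768 at 298 and 273. With fold enrichment in place of pileup these last 2 regions turned, to 0.79 and 0.16 in favour of mantled palms.

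Length was the summed length of a library's peaks in a region. At the 55 regions present in every library the median length was 414, 518, 668 and 532 bp in mantled palms 687, 754, 765 and 770. It was 516, 491, 453, 473 and 534 bp in normal palms 753, 758, 764, 767 and 768. The shortest and the longest medians were both in mantled palms, and the normal palms lay between them. The mean of the log2 medians was 9.04 ± 0.28 in mantled palms (SD, n = 4) and 8.94 ± 0.10 in normal palms (SD, n = 5), a ratio of 1.07 (p = 0.540 by exact permutation, 0.690 adjusted). Length was related to depth less closely than pileup was and without passing the test, with r = 0.491 (exact permutation p = 0.178, adjusted p = 0.266) and rho = 0.383 (p = 0.3125 by exact permutation, 0.3125 adjusted, 9 libraries), and r = 0.505 without the 2 farthest libraries and 0.653 with both measures centred on phenotype.

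By limma, 0 of the 485 regions (0%) differed in length after Benjamini-Hochberg adjustment (smallest adjusted p = 0.997). At an unadjusted p under 0.05 there were 10 longer (2.06%) and 0 shorter (0%) in mantled palms, against 9 longer and 26 shorter of 288 regions without palm 765, and 272 regions (56.1%) had a longer mean there. With each library centred on its median over the 55 regions 35.3% were longer, and with log2 fragments as a covariate 70.7% were. At 1 of the 55 regions (1.82%) the groups did not overlap, all mantled palms being longer. This was p5.00_sc00099_p0104 from 16850 to 18207, at 1017, 1011, 994 and 851 bp in palms 687, 754, 765 and 770 and 725, 826, 752, 696 and 661 bp in palms 753, 758, 764, 767 and 768. The shortest mantled value exceeded the longest normal one by less than either group's own range, at a difference of 0.40 ± 0.12 on the log2 scale (SE, limma unadjusted p = 0.00984, adjusted p = 0.997, n = 4 and 5). Its scaled pileup overlapped, from 656 to 1194 in mantled and 524 to 1306 in normal palms.

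Other regions with large length differences, chosen for that size among the 55, were mixed within the phenotypes. On p5.00_sc00062_p0018 from 37 to 1574 the difference was 0.61, on p5.00_sc00067_p0013 from 24099 to 25450 it was 0.45 and on p5.00_sc00436_p0003 it was 0.45. At the first, palms 754 and 765 had 1182 and 1185 bp and palms 687 and 770 had 482 and 841 bp, against 374 to 775 bp in normal palms. Towards normal palms the difference was -0.84 on p5.00_sc00702_p0003 from 56101 to 57869, -0.72 on p5.00_sc04043_p0001 from 3577 to 4990, -0.53 on p5.00_sc02610_p0001 from 1904 to 3342 and -0.45 on p5.00_sc00702_p0003 from 69069 to 70626. At the first of these, palms 687, 754 and 770 had 306, 322 and 300 bp and palm 765 had 1198 bp, against 473 to 1374 bp in normal palms. Palm 765 had the longest peaks of all 9 palms at the other 3.

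Among the 485, the smallest p for greater length in mantled palms was on p5.00_sc00477_p0001, where palms 754 and 765 had 654 and 781 bp against 215 and 220 bp in normal palms 767 and 768 (limma unadjusted p = 0.00225, adjusted p = 0.997). On p5.00_sc00128_p0010 from 22045 to 22525 the same mantled palms had 481 and 446 bp against 252 to 348 bp in 4 normal palms. Towards shorter peaks, p5.00_sc00252_p0005 from 7093 to 8084 had 361, 963 and 508 bp in mantled palms 687, 765 and 770 and 872 to 984 bp in 4 normal palms. The region on p5.00_sc00252_p0004 had 310, 929 and 401 bp in the same mantled palms and 710 to 997 bp in the normal ones. On p5.00_sc00042_p0118 from 11697 to 12665 they had 228, 584 and 573 bp against 969 and 897 bp in normal palms 753 and 758. Palm 765 had the longest peak of the mantled palms at these 3 regions and reached the normal lengths at the first 2.

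Leaving out palm 765 changed the length result. Of the 288 regions then fitted, 5 (1.74%) passed the adjustment by limma, 4 shorter and 1 longer in the remaining mantled palms. Those palms, 687, 754 and 770, covered only 0.408, 0.408 and 1.22% of the H3K4me3 set in the label check. The list of palm 754 stood against its mark label. At none of the 5 regions did all of palms 687, 754 and 770 have a peak. The 5 regions are named after their values were seen. The shorter ones were p5.00_sc00252_p0004 and p5.00_sc00252_p0005 (both adjusted p = 0.0392), p5.00_sc00574_p0003 from 1784 to 3169 (adjusted p = 0.0166) and p5.00_sc00047_p0037 from 8753 to 9826 (adjusted p = 0.0392). On p5.00_sc00574_p0003 palms 687 and 770 had 243 and 375 bp, normal palms 753, 758, 767 and 768 had 1009 to 1039 bp, and the left-out palm 765 had 1372 bp. On p5.00_sc00047_p0037 palms 687 and 754 had 303 and 318 bp, against 635 to 1007 bp in normal palms and 957 bp in palm 765. The longer one was p5.00_sc00242_p0004 from 15488 to 16389, with 768 and 746 bp in palms 754 and 770, 231 to 254 bp in 3 normal palms and 312 bp in palm 765 (adjusted p = 0.0166). At the 4 shorter regions the left-out mantled palm was within or above the normal range.

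Palm 765 allows a closer look at levels, since it had a peak at 1205 of the 1308 regions (92.1%) marked in at least 3 normal palms, against 366 for palm 770, 218 for palm 754 and 173 for palm 687. At those 1205 regions its scaled pileup was 0.924 times the mean of the normal palms, as a median over regions, and its peaks were 1.52 times as long. It had the longest peak of all libraries compared at 86.5% of the regions and the highest pileup at 4.98%. Measured in the same way against the other normal palms, a normal palm had length ratios from 0.785 in palm 767 to 1.18 in palm 758, and was the longest at 5 to 35.8% of regions. These ratios rest on 320 regions in palm 764 to 599 in palm 753, so the set of regions was not that of palm 765. The length of palm 765 thus lay outside the range of the 5 normal palms, with a single palm and so without a test. The other mantled palms lay within the normal range in length, and in pileup palm 687 alone lay above the normal range of 0.847 to 1.22. Length ratios were 0.857 in palm 687, 1.08 in palm 754 and 0.884 in palm 770, and pileup ratios were 1.49, 1.196 and 1.18, at the fewer regions they shared.

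The libraries that covered the H3K4me3 set can be set side by side at 1109 regions with a peak in palms 765, 753, 758 and 768. Median scaled pileup was 37.4 in mantled palm 765 and 35.2, 45.1 and 43.8 in normal palms 753, 758 and 768, so palm 765 lay within the normal palms. Median length was 759 bp in palm 765 and 486, 517 and 420 bp in the normal palms. Scaled local background was 4.25 in palm 765 and 11.4, 19.4 and 10.6 in the normal palms. Median fold enrichment was 7.23 against 2.76, 2.12 and 3.45. Palm 765 thus had the lowest local background and the highest fold enrichment of these palms. The background was worked back from that fold enrichment, so they are not separate measures. Whether the input set the enrichment of palm 765 or the length of its peaks was not tested.

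**Figure D5:**
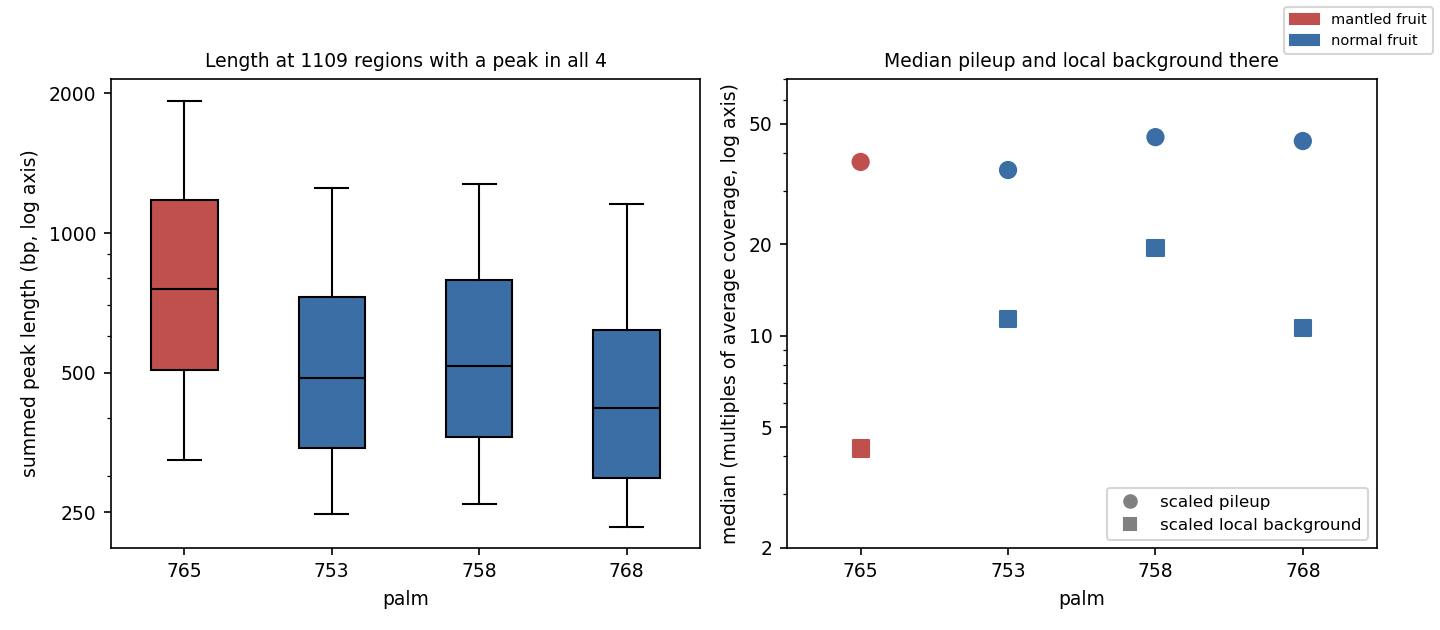
Summed peak length (left, bp, log axis, box from the lower to the upper quartile with a line at the median and whiskers from the 5th to the 95th percentile) and median scaled pileup and local background (right, multiples of average coverage, log axis) at 1109 regions with a peak in palms 765, 753, 758 and 768. Median length is 759 bp in mantled palm 765 against 420 to 517 bp in the normal palms, pileup is within their range, and local background is 4.25 against 10.6 to 19.4.

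In total the peaks covered 109, 491, 2501 and 220.0 kb in mantled palms 687, 754, 765 and 770, and 995, 1598, 179, 262 and 674 kb in normal palms 753, 758, 764, 767 and 768. The geometric mean of mantled palms was 0.753 times that of normal palms (p = 0.690 by exact permutation, 0.690 adjusted). Per 1000 fragments the order changed, to 474, 918, 682 and 281 bp in the mantled and 281, 203, 106, 866 and 506 bp in the normal palms, and the log2 difference turned from -0.41 to 0.82 (exact permutation p = 0.690 and 0.254, n = 4 and 5).

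The shape of the profile over the 55 common regions did not separate the phenotypes. Pairs of libraries had a mean Pearson r of log2 scaled pileup across regions of 0.972 within and 0.973 between phenotypes (p = 0.667 by exact permutation of the labels, 0.690 adjusted). Regions share the library and its depth and are not independent. The lowest r, 0.936, was between mantled palms 687 and 765. Summits lay a median of 13.4 bp apart within and 11.95 bp apart between phenotypes, averaged over pairs (p = 0.444 by exact permutation, 0.690 adjusted). Normal palm 767 had the largest offsets, 14 to 38 bp from the other libraries, and those among the remaining 8 libraries were 3 to 19 bp.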

How the data were processed

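Libraries of sheared chromatin, with and without H3K4me3 precipitation, were sequenced in pairs, per the labels. Per the submitters' processing notes, MACS2 2.1.1.20160309 was among the tools, with SAMtools 1.9, Bowtie2 2.2.5 and FastQC 0.11.3. The genome build is not given in the sources used here. Per the file headers, peaks were called for each palm against its input at a q cutoff of 0.05, with 1 genome size for all lists and 1 fragment kept per position. The deposited lists give pileup, a signal in stacked fragments, fold enrichment, a ratio to local background, and -log10 p and q values, all made by the authors' peak caller.

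Here peaks of the 9 lists were merged where they shared at least 1 bp. Pileup of the strongest peak was divided by average coverage (fragments after filtering times d over that genome size), and length was summed over a library's peaks. Local background was worked back from the fold enrichment of that peak, allowing for a pseudocount of 1. Regions with peaks in at least 2 libraries of each phenotype were fitted on the log2 scale with limma 3.58.1 in R 4.3.3, where absent peaks are missing values. Values per library were compared by two-sided exact permutation over all splits, in Python 3.11.15 with SciPy 1.17.1. Presence was tested by Fisher's exact test. P-values were adjusted by the Benjamini-Hochberg method at 0.05. The fits were also run on simulated data with independent noise and no effect of depth. That run does not show how the fits behave where values follow depth.

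Named regions were, among those in all 9 libraries, the 5 highest and 5 lowest differences in pileup and the 4 and 4 in length. To these were added the 3 smallest p in each direction for each measure among fitted regions, and the 5 largest differences in presence each way. All were chosen on the values compared, and the members and lists were chosen with earlier results of these data known. Fragments entering the calls, 229258 to 7883375, limit which peaks could be called. Alternatives covered peak thresholds, overlap, scaling, centring, array weights, depth as a covariate, an equal number of strongest peaks, exchange of palm 754's lists and leaving out each library.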

Additional observations from a re-analysis of the deposited data

Results flagged for a closer look

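In 15 of 102 groups of values (14.7%) the highest or lowest library stood apart, its gap to the nearest other library divided by the group's range being above Dixon's 95% critical value of 0.829 for 4 libraries or 0.71 for 5. Chance flags about 1 in 20 groups, and the groups share libraries.

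Palm 765 accounted for 7 of the 15, each time as the highest mantled palm. It had 3670206 fragments against 783650 in the next mantled palm and covered 2501 kb against 491 kb. Its peaks were 1646 bp long on p5.00_sc00092_p0018, 1253 bp on p5.00_sc00847_p0001, 518 bp on p5.00_sc01226_p0002, 470 bp on p5.00_sc02534_p0002 and 1198 bp on p5.00_sc00702_p0003 from 56101. Palm 770 stood apart on p5.00_sc01226_p0002, with the highest mantled scaled pileup of 1061, and on p5.00_sc00099_p0104, with the shortest mantled peak of 851 bp.

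Among normal palms, palm 767 had the highest scaled pileup at 3 regions, with 208 on p5.00_sc00087_p0065, 233 on p5.00_sc00527_p0003 and 21.5 on p5.00_sc00022_p0103. Palm 764 had the shortest normal peak on p5.00_sc04043_p0001, 710 bp, and on p5.00_sc00702_p0003 from 69069, 862 bp. Palm 753 had the longest normal peak on p5.00_sc00087_p0065, 497 bp.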

How the results depend on the processing

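No paired analysis was possible because each palm bears 1 phenotype and replicate numbers only follow accession order. Regions called for pileup numbered 0 under every alternative run. Those called for presence did too, but with a smallest attainable p of 0.00794 that count says nothing about stability. Regions called for length were 0 to 5 over the fits leaving out 1 library, with 5 without palm 765, and 0 under the other alternatives.

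Leaving out each library in turn, the mantled minus normal log2 difference was -1.27 to 0.23 for covered length, -0.27 to 0.023 for local background, 0.04 to 0.14 for length and 0.03 to 0.29 for pileup. The within minus between difference was -0.00484 to 0.00183 for profile similarity and -0.167 to 2.50 bp for summit distance. Shared regions numbered 879 to 3006. With peaks of fold enrichment at least 3, the differences were -0.029 for length, 0.60 for covered length and -1.96 bp for summit distance, with 1291 shared regions, and profile similarity gave no value. With equal numbers of strongest peaks, covered length differed by 0.18 and 403 regions were shared. Covered length divided by fragments differed by 0.82, and profile similarity from fold enrichment by 0.0477. With log2 fragments as a covariate, chosen after seeing the data, pileup differed by -0.042 and background by -0.33 (p = 0.0317 by permutation of the labels, not exact given depth). The cause was not tested.

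Single regions also turned. For pileup on p5.00_sc02067_p0001 the difference was -0.19 to 0.054 without 1 library (positive without palm 754), 0.12 at -log10 q of at least 5, 0.098 as a mean over peaks, 0.0055 scaled by fragments alone and 0.047 as fold enrichment. With each library centred on its median, p5.00_sc00847_p0001, p5.00_sc03049_p0001, p5.00_sc01226_p0002 and p5.00_sc02534_p0002 gave -0.13, -0.12, -0.12 and -0.090. With the covariate they gave -0.31, -0.093, -0.055 and -0.11, and with array weights -0.044, -0.10, -0.079 and -0.031. Without 1 library they gave -0.18 to 0.18, -0.093 to 0.066, -0.078 to 0.045 and -0.065 to 0.11, and p5.00_sc03049_p0001 was -0.015 at -log10 q of at least 5. The covariate also turned p5.00_sc01093_p0001 to -0.050, p5.00_sc00091_p0037 to -0.73 and p5.00_sc00835_p0001 to -0.031, the last 2 with depth fully separating the phenotypes, so that those values cannot be read. Fold enrichment turned p5.00_sc00154_p0014 to 0.79 and p5.00_sc00477_p0001 to 0.16. Length of the strongest peak turned p5.00_sc00702_p0003 from 69069 to 0.15. At fold enrichment of at least 3 presence on p5.00_sc00709_p0003, p5.00_sc00016_p0009 and p5.00_sc02809_p0001 turned to 0.25, the mantled minus normal share of libraries. Shallow libraries limit which low peaks could be called.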
